A study of Mus musculus with 12 samples.

Results

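The thyroids of 6 unaffected B6NCrl mice, out of the 12 thyroids sequenced in the series, are described here across all genes. They were chosen by their library names, which end in the code of the unaffected Charles River mice, and no expression value was used to choose them. The other 6 thyroids, 5 from affected B6NTac mice and 1 from an unaffected mouse of a B6NTac mutant strain, enter no value below. B6NCrl is the C57BL/6N substrain of Charles River, and the labels give these 6 mice a wild type phenotype, with no treatment, age, sex, dissection note or sequencing batch. Total RNA was extracted from each thyroid, ribosomal RNA was depleted, and 1 library was made per mouse. The mice are named 21 to 26 after their libraries. They are the replicates, so that every SD below is the spread between 6 mice.

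The thyroid follicle is a sphere of epithelial cells around a store of thyroglobulin, the large protein on whose tyrosines thyroid hormone is made. Iodide enters the follicular cell at its base, leaves it at the lumen, is oxidised with hydrogen peroxide and is bound to thyroglobulin, which is later taken back up and cut by cathepsins to free T4 and T3. Thyrotropin (TSH) drives these steps through its receptor and cyclic AMP. Between the follicles lie the C cells, which make calcitonin, and the parathyroid glands are attached to or embedded in the mouse thyroid.

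The 6 libraries held between 18103710 and 22401136 estimated counts. Of the 55536 genes in the table, 33889 had at least 1 count in any mouse and 21191 had none in any mouse, the remainder holding only fractions of a count. FPKM is the fragments of a gene scaled by a length of its RNA and by the depth of the library. It is used below wherever genes are compared with each other, since it is per length. The deposited values do not follow the listed exon length for every gene. *Gapdh* and *Polr2a* held 0.0177% and 0.0178% of counts, with 4133 and 7067 bases of exon, and had mean FPKM of 199 and 28.2. The length used is not given in the sources used here, so levels of different genes compare only roughly. A gene is counted as detected when its FPKM was at least 1 in all 6 mice. By that measure 13993 genes were detected, of which 11895 were protein-coding, out of 22028 protein-coding genes in the table. At least 10 FPKM in every mouse was reached by 5032 genes, at least 100 by 208 and at least 1000 by 23. In bulk tissue, fewer cells of a type and less RNA per cell cannot be told apart.

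Libraries of 2 mice stood apart. That of mouse 21 was far above the others for thymus and T cell genes, and that of mouse 23 for a set of genes led by the mucin *Muc5b*. Of 1471 genes with an FPKM of at least 1 in a single mouse, 686 were in mouse 21 and 278 in mouse 23. Skeletal muscle genes varied over the whole set. Values that rest on these mice are given below beside the range of the other 5 mice or without the mouse in question.

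The 3 genes that mark the tissue were clearly present in each mouse. *Pax8*, a paired box transcription factor needed to form and maintain follicular cells, was at 167, 159, 174, 180.0, 175 and 214 FPKM in mice 21 to 26. *Tshr*, the TSH receptor, was at 10.1, 9.97, 13, 13.3, 11.4 and 12 FPKM. *Tg* (ENSMUSG00000053469, chr15:66670753-66850721 of GRCm38, plus strand, 8883 bases of exon) was at 26284, 26006, 25628, 35134, 27389 and 31890.0 FPKM. The label of thyroid tissue therefore held in every library, and mouse 24 was the highest of the 6 for both *Tg* and *Tshr*.

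*Tg* held 24.2% ± 3.28 (SD, n = 6) of all counts. The share was 22.1% in mouse 21, 21.9% in mouse 22, 21.6% in mouse 23, 29.6% in mouse 24, 23.0% in mouse 25 and 26.8% in mouse 26. Mice 24 and 26 thus stood above the other 4, which lay within a narrow band. The 95% Wilson interval of the share in a single mouse was at most 0.0406 percentage points wide, and it covers counting error only. The mean was 24.6% without mouse 21 and 24.7% without mouse 23. Because the *Tg* transcript is long, its share by FPKM was smaller, at 6.55% ± 0.995 (SD, n = 6). By FPKM its rank among all genes was between 2 and 4 in a mouse, and it was the first of the protein-coding genes in mean FPKM. Next among the protein-coding genes came *mt-Co1*, a mitochondrially encoded subunit of cytochrome c oxidase, at 7750.2 ± 1624 FPKM. The ratio of *Tg* to *mt-Co1* went from 2.43 in mouse 22 to 5.98 in mouse 24, a range set by both genes.

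After *Tg* the counts fell off steeply. The 10 most abundant genes of each mouse held 35.3% ± 2.13 of its counts, the 100 most abundant 44.6% ± 1.68 and the 1000 most abundant 62.7% ± 1.38 (SD, n = 6). Mouse by mouse, 387, 245, 264, 198, 247 and 257 genes were enough to hold 50% of the counts in mice 21 to 26. Mouse 21, with 387, stood apart from the other 5. With *Tg* set aside, the number was 957 ± 115.6 (SD, n = 6).

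**Figure D1:**
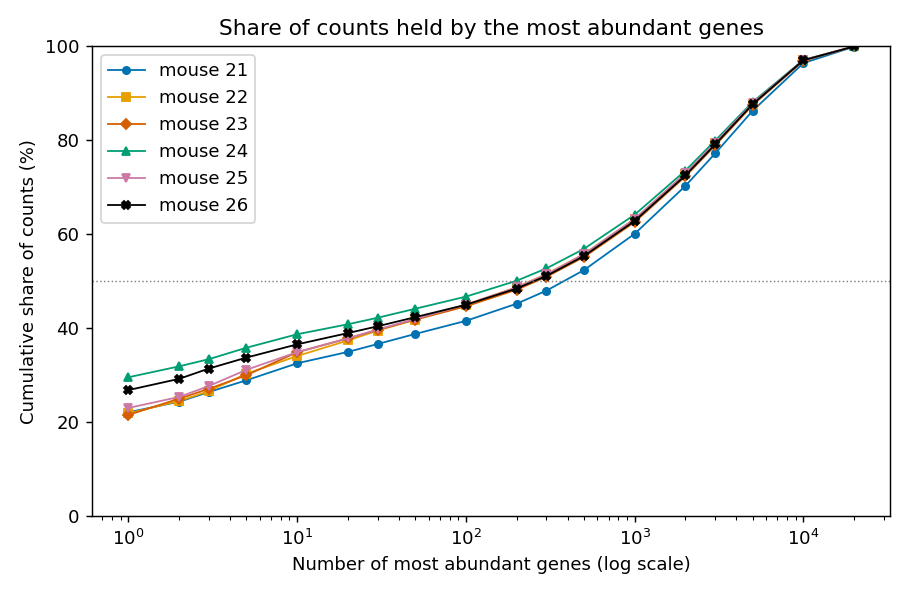
The x axis gives the number of most abundant genes in a mouse on a log scale, the y axis the percent of that mouse's counts they hold, with 1 line per mouse and a dotted line at 50%. All lines begin at *Tg*, between 21.6% and 29.6%, and the line of mouse 21 runs lowest from 10 genes on, reaching 60.1% at 1000 genes.

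The 15 genes with the highest mean share of counts were of few kinds. *Malat1*, a nuclear long noncoding RNA found in most tissues, was second at 2.25% ± 0.124 (SD, n = 6). *Rn7s1* and *Rn7s2*, the 7SL RNA of the signal recognition particle, held 1.91% ± 0.359 and 0.823% ± 0.28. *Rn7sk*, the 7SK RNA that regulates transcription elongation, held 0.98% ± 0.0849, and the long noncoding RNA *Gm26917* held 1.28% ± 0.115. Mitochondrial mRNAs supplied *mt-Co1*, *mt-Cytb*, *mt-Nd4*, *mt-Nd5* and *mt-Nd1*, and the 13 mitochondrial mRNAs together held 3.53% ± 0.607 of the counts. *Eef1a1*, a translation elongation factor, closed the list at 0.247% ± 0.0138, and *Chga*, the secretory granule protein chromogranin A, held 0.314% ± 0.07. Of the other 2, the giant muscle protein titin, *Ttn*, held 1.24% ± 1.09 and the mucin *Muc5b* 0.576% ± 1.41. For those 2 genes the SD was close to the mean or above it, so their place in the list came from some of the mice only. Without mouse 23 the mean share of *Muc5b* was 0.000528% ± 0.00026 (SD, n = 5).

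*Rn7s1* and *Rn7s2* showed a spread that comes with a limit of the counting. Their annotated transcripts are both 300 bases long and differ at 0 positions, so that reads cannot be assigned to one or the other. *Rn7s1* was at 68702, 67491, 46384, 50970.2, 75201 and 72882 FPKM in mice 21 to 26, and *Rn7s2* at 21295, 20204, 39049, 39878, 22799.8 and 21441. Mice 23 and 24 were thus the lowest for the one and the highest for the other. The share of *Rn7s1* in the sum was 54.3% and 56.1% in mice 23 and 24 and between 76.3% and 77.3% in the other 4. The sum itself was 91050 ± 4538 FPKM, with a coefficient of variation (CV, the SD over the mean) of 4.98% on FPKM. The single genes were at 63605 ± 11982 and 27445 ± 9350 FPKM, with CVs of 18.7% and 35.1% on counts scaled between libraries. Every CV of a gene below is on such scaled counts unless stated otherwise. It can therefore differ from the SD over the mean of the printed FPKM.

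Among protein-coding genes with at least 300 bases of exon, the 15 of highest mean FPKM were *Tg*, 10 mitochondrial mRNAs, *Eef1a1* and 3 genes of endocrine cells other than the follicular cell. *Pth*, parathyroid hormone, was at 3203 ± 573 FPKM. *Chga* was at 1694 ± 377 FPKM and *Calca*, which encodes calcitonin, at 949 ± 214. Of the 100 protein-coding genes of highest FPKM in each mouse, 67 were shared by all 6 mice, out of 140 that were among the 100 of any mouse.

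Of the genes of hormone synthesis, 9 of 11 were detected, and their levels were spread from the highest of all coding genes to almost none. *Iyd*, the deiodinase that recovers iodide from iodotyrosines, was at 129 ± 22.9 FPKM (SD, n = 6). *Slc5a5*, the sodium/iodide symporter that brings iodide into the cell, was much lower, at 1.99, 2.64, 9.34, 3.56, 2.09 and 5.48 FPKM. It had the widest relative spread of the synthesis genes above a mean CPM of 1, with a CV of 68%, and 44.3% without mouse 23, the highest of the 6.

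The routes for iodide into the lumen differed widely in level. *Slc26a4*, pendrin, was at 0.101, 0, 0.0629, 0.0168, 0.0719 and 0.017 FPKM, below the detection level in every mouse. *Slc26a7*, an anion transporter of the same family, was at 81.9, 71.3, 89.2, 104, 93.6 and 113 FPKM, and *Ano1*, a calcium-activated chloride channel, at 6.54, 11.5, 12.9, 11.8, 8.32 and 9.02 FPKM. The ranges of these 3 genes over the 6 mice did not overlap.

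For the peroxide generators, *Duox2* was at 4.15, 4.47, 6.12, 6.35, 5.22 and 6.51 FPKM in mice 21 to 26 and *Duox1* at 0.524, 0.274, 0.531, 0.27, 0.415 and 0.293. The ratio of *Duox2* to *Duox1* was 15.7 ± 6.18 (SD, n = 6), from 7.9 in mouse 21 to 23.5 in mouse 24. Their maturation factors *Duoxa2* and *Duoxa1* were closer to each other, at 8.49 ± 1.72 and 2.88 ± 0.771 FPKM. The exons of *Duoxa1* and *Duoxa2* overlap on opposite strands. The split between them is uncertain, because strand handling in the counting is not given in the sources used here.

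All 5 transcription factors of the follicular lineage were detected. After *Pax8*, *Nkx2-1* was at 69.2 ± 9.57 FPKM, *Foxe1* at 46.8 ± 6.32, *Hhex* at 32.3 ± 7.65 and *Glis3*, a zinc finger factor, at 9.64 ± 1.41 (SD, n = 6). The CV was 9.63% for *Pax8*, 13.5% for *Nkx2-1*, 14.1% for *Foxe1*, 15.6% for *Glis3* and 23.4% for *Hhex*. *Pax8*, *Nkx2-1*, *Foxe1* and *Hhex* were all highest in mouse 26, and *Glis3* in mouse 24. All 5 had a mean CPM of at least 10, and the median CV over all genes at that level was 9.48%. *Pax8* was close to it and the others lay above it. Over all genes with a mean CPM of at least 1, which include many with few counts, the median was 13.1%.

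In TSH signalling 10 of 11 genes were detected. *Gnas*, the locus of the stimulatory G protein alpha subunit, was at 439, 634, 584, 526, 560.1 and 649 FPKM, and *Tshr* was more than 10 times lower in every mouse. *Prkar1a*, a regulatory subunit of protein kinase A, had one of the smallest spreads of all thyroid genes, at 66.6 ± 3.92 FPKM and a CV of 3.9%. *Pde4d*, which degrades cyclic AMP, was at 16.4, 20.4, 12.9, 8.18, 16.2 and 8.43 FPKM, with mice 24 and 26 lowest, and had the largest CV of this list, at 40.3%. Mice 24 and 26 were also the lowest for the skeletal muscle genes described below, and the part of muscle in the spread of *Pde4d* was not tested. Of the potassium channel that supports iodide uptake, *Kcnq1* was at 2.65 ± 0.277 FPKM and its partner *Kcne2* at 0.0885 ± 0.017, below the detection level in all 6 mice.

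**Figure D2:**
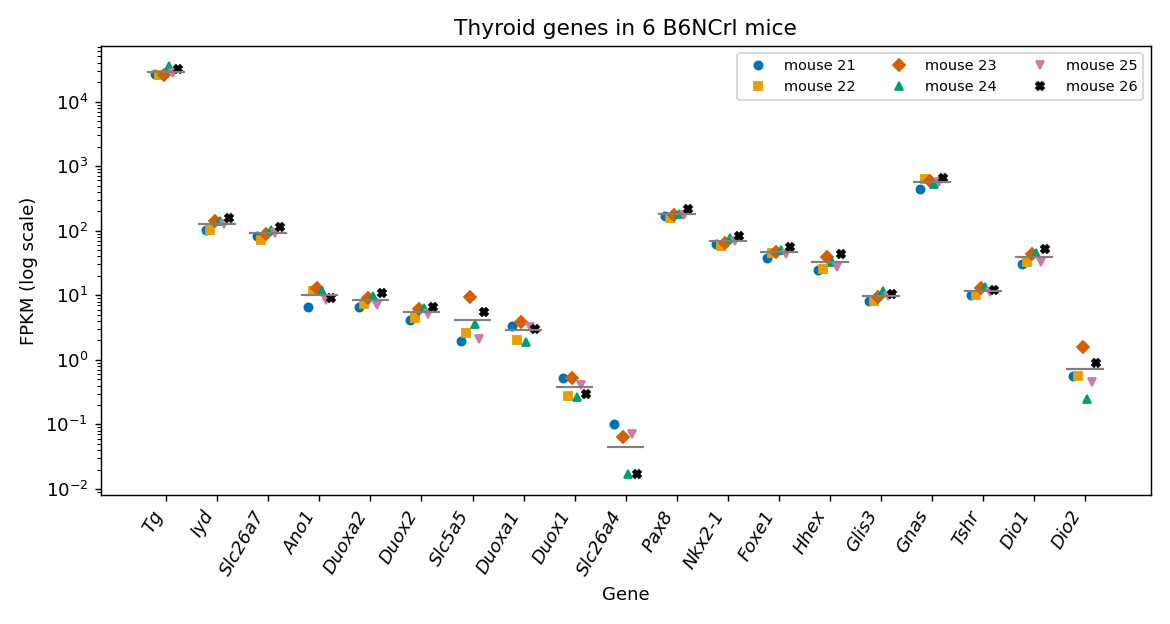
FPKM of 19 thyroid genes on a log axis, with 1 marker per mouse and a grey line at the mean of the 6 mice. A value of 0 (*Slc26a4* in mouse 22) is not drawn. *Tg* lies near 28722, *Pax8* near 178 and *Tshr* near 11.7, and mouse 23 stands above the rest for *Slc5a5* and *Dio2*.

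All 8 genes that take up and cut thyroglobulin were detected, led by the cathepsins. *Ctsd* was at 168 ± 3.59 FPKM, *Ctsl* at 138 ± 21.1 and *Ctsb* at 86.1 ± 6.74 (SD, n = 6). *Ctsd* was nearly level, at 171, 172, 169.5, 165, 163 and 169 FPKM in mice 21 to 26. *Ctss*, a cathepsin of antigen-presenting cells, was at 27.3 FPKM in mouse 21 and between 8.37 and 13 in the others. *Lrp2*, megalin, and *Asgr1*, the asialoglycoprotein receptor, both described as thyroglobulin receptors, were at 18.3 ± 2.91 and 20.1 ± 6.13 FPKM.

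Of the 10 genes that carry, convert or read the finished hormone, 6 were detected. *Dio1*, the type 1 deiodinase, was at 39.4 ± 8.71 FPKM (SD, n = 6). *Dio2*, the type 2 deiodinase, was at 0.567, 0.568, 1.59, 0.248, 0.456 and 0.892 FPKM, over 1 FPKM in mouse 23 alone. *Dio3*, which inactivates the hormone, was between 0 and 0.0711 FPKM. The receptor gene *Thra* was at 30.6 ± 1.52 FPKM and *Thrb* at 5.32 ± 1.14. The exons of *Thra* and *Nr1d1* overlap on opposite strands, which leaves part of their counts uncertain.

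All 15 genes of peroxide handling were detected. *Sod1*, the cytosolic superoxide dismutase, led them at 304 ± 17.9 FPKM (SD, n = 6), followed by *Prdx6* at 122 ± 11, *Selenop* at 116 ± 19.7 and *Gpx4* at 115 ± 10.2. *Gpx3*, the secreted glutathione peroxidase, was at 165 FPKM in mouse 22 and between 77.5 and 102 in the other 5 mice.

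The 16 genes of protein folding in the endoplasmic reticulum, which a cell that exports thyroglobulin uses heavily, were all detected and summed to 889, 739.6, 1212, 1232, 824 and 982 FPKM in mice 21 to 26. Mouse 24 was the highest for 9 of the 16 and mouse 23 for the other 7. *Hspa5*, the chaperone BiP, was at 59.9, 66.7, 122, 128, 63.1 and 74.4 FPKM, with mice 23 and 24 well apart from the rest. *Hsp90b1*, *Calr* and *Manf* showed the same 2 mice on top. *Sdf2l1* had the largest CV of the list, at 59.4%, and *Sel1l* the smallest, at 7.26%. The same 2 mice were those with a different split of *Rn7s1* and *Rn7s2*, whose reads cannot be assigned to one or the other. Whether these are linked was not tested.

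*Sla*, the Src-like adaptor, lies on the minus strand within the bounds of *Tg* (chr15:66780819-66831829). It was at 367, 421, 486, 608, 385 and 655 FPKM in mice 21 to 26, the twenty-seventh highest mean of the protein-coding genes. No exon of *Sla* overlaps an exon of *Tg* in the annotation. *Sla* and *Tg* were both highest in mice 24 and 26. With strand handling unknown, reads of *Sla* and reads from the introns of *Tg* cannot be told apart.

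The spread between mice was measured on counts scaled to library size with TMM factors, which ran from 0.958 to 1.06. Over the 16878 genes with at least 10 counts in every mouse and a mean CPM of at least 1, the median CV was 12.7%. Of them 36.2% had a CV under 10% and 3.84%, or 648 genes, over 50%. The common biological coefficient of variation, the spread between mice that edgeR estimates beyond counting error, was 20.9%. It was 18.0% without mouse 21, and the number of genes over 50% then fell to 386, against 635 to 738 when any other mouse was left out.

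A minimum count in each mouse removes genes that are absent from some mice, so extremes are given over the 9829 genes with a mean CPM of at least 10. Their median CV was 9.48%, and 246 of them had a CV over 50%. Of these 246, 122 were highest in mouse 22, 59 in mouse 21, 32 in mouse 23, 29 in mouse 25, 3 in mouse 26 and 1 in mouse 24. Without mouse 21 the number was 214, and it was 232 to 276 without any one of the others. Genes ranked alike between mice, and Spearman's rho between mice over 17334 genes, as a description, was between 0.944 (mice 21 and 26) and 0.988 (mice 24 and 26).

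**Figure D3:**
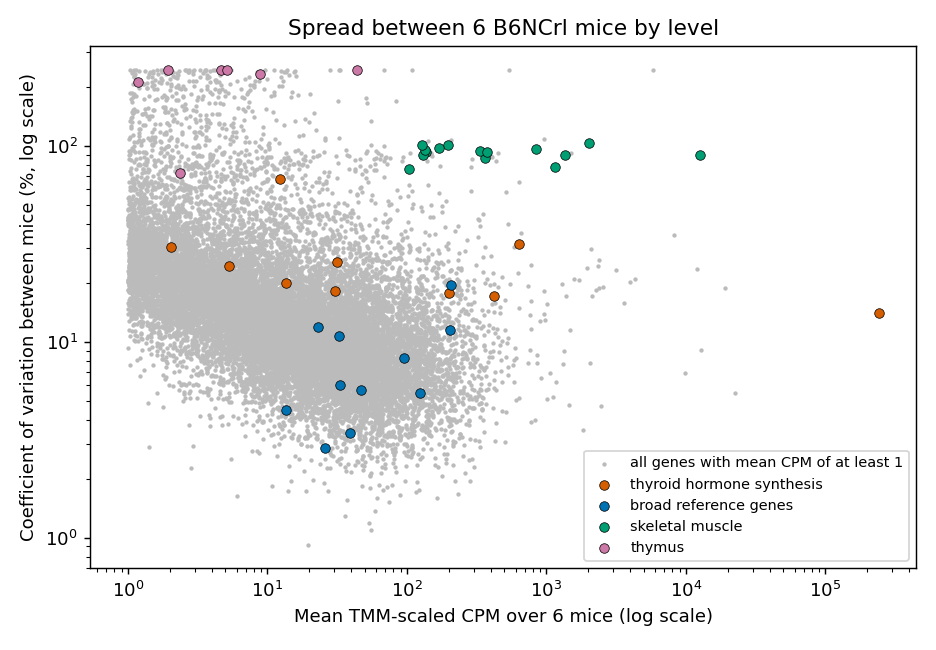
Each grey point is a gene with a mean CPM of at least 1. The x axis gives the mean TMM-scaled CPM and the y axis the CV between the 6 mice, both on log scales, and colours mark 4 gene lists. Skeletal muscle genes lie between 76.4% and 103%, thymus genes mostly near the top, and *Tg* at the far right at 13.9%.

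The 15 protein-coding genes of lowest CV at a mean CPM of at least 10 had CVs from 0.921% to 1.74%. On the deposited FPKM, without TMM factors, the CVs of the same genes were 3.15% to 8.97%, and *Nup214* stood out as high in mouse 21, the mouse with the largest TMM factor. They included *Dnajc19*, a mitochondrial co-chaperone, *Phf12*, a chromatin factor, *Nup214*, a nuclear pore protein, and *Ptdss1*, which makes phosphatidylserine. For 14 of the 15 the CV was smaller than counting error alone gives at their mean count, which was 1.48% to 6.01%. Their order therefore cannot be read as a ranking of steadiness.

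Housekeeping genes differed widely among themselves. Over 17 classic reference genes the median CV was 8.51%, and over 11 genes chosen for even levels across many tissues it was 6.01%. *Gapdh*, a glycolytic enzyme, was at 200.3, 353, 181, 102, 255 and 106 FPKM in mice 21 to 26, a CV of 49.4% and a 3.47-fold range. *Pgk1*, another glycolytic enzyme, was at 53.5, 79.1, 45.7, 32.9, 57 and 40.4 FPKM. Mouse 22 was the highest for both, followed by mice 25, 21 and 23.

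Others hardly moved. *Eef1a1* was at 1475, 1329, 1281, 1381, 1457 and 1449.9 FPKM in mice 21 to 26, with a CV of 4.68%, *Rplp0*, a ribosomal protein, had a CV of 4.6%, *Polr2a*, the large subunit of RNA polymerase II, 5.2%, *Ppia* 5.59% and *Tbp*, the TATA-binding protein, 5.67%. Of the broad set, *Vps29* and *Emc7* had CVs of 2.85% and 3.42%. Both were smaller than counting error alone gives at their mean counts, 4.41% and 3.58%, so they do not rank these genes as the steadiest. *Gpi1*, a glycolytic enzyme and the only glycolytic member of that set, had the largest, at 19.4%, and its 4 highest mice came in the same order as for *Gapdh* and *Pgk1*. Of the 28 reference genes, 4 followed that order, these 3 among them. *Actb* had a CV of 13.9%. *B2m*, part of class I MHC, was at 331 FPKM in mouse 21 and between 177 and 219 in the others.

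**Figure D4:**
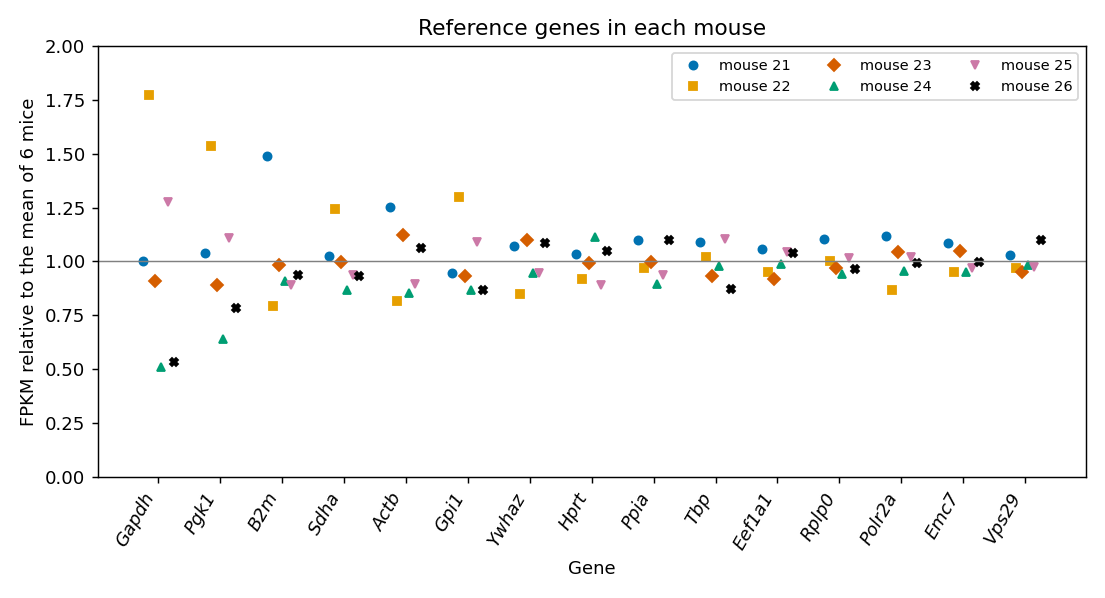
FPKM of 15 reference genes in each mouse, divided by the gene's mean over the 6 mice, on a linear axis from 0 to 2. *Gapdh* and *Pgk1* spread widely with mouse 22 on top, while *Eef1a1*, *Rplp0*, *Emc7* and *Vps29* stay close to 1.

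Skeletal muscle genes spread widely, with a CV over 50% for all 15 members that had a mean CPM of at least 1. Their 16 members summed to 3307, 7328, 2677, 306, 5685 and 14.9 FPKM in mice 21 to 26, from 0.00444% to 4.26% of a mouse's counts. *Acta1*, skeletal muscle actin, was at 598, 1399.5, 459.9, 38.7, 971 and 0.181 FPKM. *Ckm*, muscle creatine kinase, was at 265, 608, 200.2, 29, 449 and 0 FPKM, and *Ttn* at 236, 480.2, 214, 16.6, 472 and 0.333. For 14 of the 16 the highest mice were 22 and 25, the exceptions being the myosins *Myh2* and *Myh7*. Mouse 26 had little of any member, with *Myl1*, a myosin light chain, at 8.82 FPKM as its highest. The order of mice 22, 25, 21 and 23 was that of *Gapdh*, *Pgk1* and *Gpi1*. The part of muscle in the spread of those 3 genes was not tested.

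Promoters of 12 of the 16 muscle genes were found in the RefSeq table (GRCm38.p6), which gives 250 bases before and 50 after the start of transcription. They are shown for *Acta1* (chr8:123894726-123895025, minus strand) and *Myh4*, fast myosin (chr11:67237562-67237861, plus strand), because these 2 of the 12 hold a CArG box, the site read by serum response factor. Capitals mark the CArG box and TATAAA on either strand.
Acta1: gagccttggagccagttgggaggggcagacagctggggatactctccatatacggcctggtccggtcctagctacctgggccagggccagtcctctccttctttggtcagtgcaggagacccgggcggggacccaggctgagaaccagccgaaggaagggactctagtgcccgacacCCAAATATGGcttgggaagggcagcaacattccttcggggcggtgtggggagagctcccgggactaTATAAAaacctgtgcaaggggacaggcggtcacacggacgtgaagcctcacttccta
Myh4: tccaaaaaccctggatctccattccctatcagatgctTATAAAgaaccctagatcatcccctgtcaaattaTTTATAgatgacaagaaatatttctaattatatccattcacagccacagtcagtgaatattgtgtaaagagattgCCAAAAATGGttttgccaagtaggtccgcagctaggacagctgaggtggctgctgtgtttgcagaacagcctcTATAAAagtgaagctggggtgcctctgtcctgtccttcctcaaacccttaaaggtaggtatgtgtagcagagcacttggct
The CArG box begins 73 bases before the RefSeq start in *Acta1* and 104 bases before it in *Myh4*. Over all windows of this length in the table, 1.63% hold a CArG box on either strand and 13.6% hold TATAAA. The 12 muscle genes have 16 windows, of which 2 hold a CArG box and 5 hold TATAAA. A match describes the letters only.

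Genes of endocrine neighbours were present in every thyroid. *Pth* was at 2455, 3349, 3347, 2757, 3192 and 4120.5 FPKM in mice 21 to 26. *Gcm2*, the factor that specifies the parathyroid, was at 13.4 ± 2.57 FPKM and *Casr*, the calcium-sensing receptor, at 45.4 ± 8.24 (SD, n = 6). *Calca* was at 692, 1176, 743, 1193, 877 and 1014 FPKM, and *Scg2*, a granin of secretory granules, at 96.9 ± 16.8. The lowest mouse for *Pth*, *Gcm2*, *Casr*, *Calca* and *Scg2* was mouse 21. The CV of *Pth*, 18.4%, was 12.9% without it. Mouse 23 was among the 3 highest for *Pth* and next to lowest for *Calca*.

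**Figure D5:**
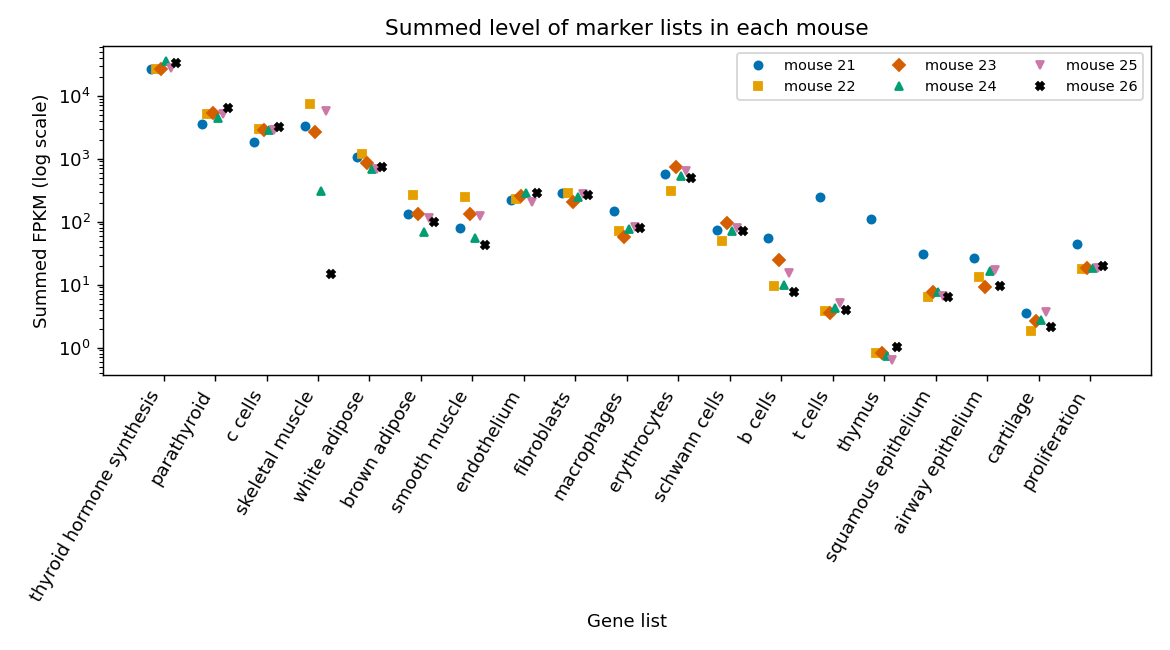
Summed FPKM of 19 gene lists in each mouse on a log axis, with 1 marker per mouse. The skeletal muscle sum runs from 14.9 to 7328, the thymus sum is 109.8 in mouse 21 against 0.633 to 1.01 in the others, and the parathyroid and C cell sums stay between 1821 and 6268. *Chga* is a member of both the parathyroid and the C cell list.

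All 8 thymus genes and all 9 T cell genes were highest in mouse 21. Of the T cell genes, 1 was detected in all 6 mice, *Lck*, a kinase of the T cell receptor pathway, which was at 33.5 FPKM in mouse 21 and between 1.04 and 2.06 in the others. The 8 thymus genes summed to 109.8 FPKM in mouse 21 and between 0.633 and 1.01 in the other 5 mice, and the 9 T cell genes to 247 against 3.6 to 5.09. *Rag1*, the recombinase of developing lymphocytes, was at 42 FPKM in mouse 21 and at 0.0135, 0.0146, 0.0078, 0.0836 and 0.0159 in mice 22 to 26. *Rag2* was at 4.82 FPKM in mouse 21 and listed at 0 in the others. *Prss16*, a protease of thymic cortical epithelium, was at 44.1 FPKM against at most 1.31, and *Cd8a* at 33.1 against at most 0.192. All 11 proliferation genes were highest in mouse 21, with *Mki67* at 4.72 FPKM against 0.32 to 0.553. All 9 macrophage genes were highest there too, with *C1qa*, a complement component, at 20.2 FPKM against 7.16 to 11.9. *Krt5*, a keratin of basal epithelium, was at 19.7 FPKM against at most 1.23. For *B2m*, *Ctss* and *Mki67* the CVs of 20.6%, 46.9% and 149.5% became 6.32%, 17.2% and 21.0% without mouse 21. The part of thymus tissue in them was not tested.

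Mouse 23 stood alone for a set of genes that belonged to no list. They are named because they were among the 15 protein-coding genes of highest CV at a mean CPM of at least 10. *Muc5b*, a gel-forming mucin, was at 0.368, 0.435, 2309.6, 0.465, 0.447 and 0.049 FPKM in mice 21 to 26, the level of a major transcript in one mouse and close to none in the rest. *Bpifb2* was at 379 FPKM in mouse 23 and at most 0.0596 elsewhere, *Tff2*, a trefoil peptide, at 329 against at most 0.265, and *Gp2*, a membrane protein of secretory granules, at 206 against at most 0.129. *Dcpp2* was at 107 FPKM and listed at 0 in the other 5, but its exons overlap those of *Dcpp1* on the same strand, so the level is uncertain. *Sbpl*, *Dcpp3*, *Pigr*, which carries antibodies across epithelium, and *Dmbt1* behaved alike, with 223, 119.8, 23.5 and 13.5 FPKM in mouse 23. So did *Alb*, albumin, at 82.4 FPKM and *Apob*, apolipoprotein B, at 5.57. *Slc5a5* and *Dio2* were also highest in mouse 23, and whether these are linked was not tested.

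Fat genes were present throughout. *Fabp4*, a fatty acid binding protein of adipocytes, was at 387, 524, 329, 251, 214 and 312 FPKM in mice 21 to 26, and *Adipoq*, adiponectin, at 41.5 ± 10.5 (SD, n = 6). *Ucp1*, the uncoupling protein of brown fat, was at 25.3, 49, 34.4, 13.6, 14.2 and 26 FPKM. Mouse 22 was the highest for 5 of the 7 brown fat genes and 5 of the 9 white fat genes. It was also the highest for 10 of the 13 mitochondrial mRNAs and for all 6 smooth muscle genes.

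The 8 endothelium genes had a median CV of 16.7%, from 6.56% to 25.0%, and the 8 fibroblast genes one of 17.2%. Over all genes the median was 13.1% at a mean CPM of at least 1 and 9.48% at a mean CPM of at least 10. *Pecam1*, an endothelial adhesion molecule, was at 46.7 ± 3.42 FPKM with a CV of 6.56%, and *Dcn*, the matrix proteoglycan decorin, at 148 ± 23.6 with a CV of 16.7% (SD, n = 6). All 6 Schwann cell genes and all 6 red cell genes were highest in mouse 23. Cartilage genes were close to 0, with 7 of 8 under 1 FPKM in every mouse. The 7 squamous epithelium genes summed to 30.1 FPKM in mouse 21 and between 6.39 and 7.76 in the others. The airway list summed to between 9.11 and 26.6 FPKM, with *Bpifa1*, a secreted airway protein, at 18.7 FPKM in mouse 21 and at 2.01 in mouse 23.

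*Xist*, the RNA that silences an X chromosome, was at 126, 0.948, 96.6, 1.23, 113 and 1.02 FPKM in mice 21 to 26. The Y-linked genes had the reverse pattern, with *Ddx3y* at 0, 20.6, 0.128, 17.9, 0 and 18 FPKM, and *Kdm5d*, *Uty* and *Eif2s3y* likewise. The labels give no sex, and no mice were grouped by these genes. Every SD and CV over the 6 mice therefore takes mice of both patterns together. *C7*, a complement component named after its values were seen, was at 1.33, 5.79, 1.63, 6.09, 1.34 and 6.15 FPKM, with the same 3 mice low as for the Y-linked genes.

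Some clock genes separated the mice in another way. *Arntl*, the activator BMAL1, was at 12.8, 9.95, 6.73, 11.3, 5.89 and 5.94 FPKM in mice 21 to 26. *Dbp*, an output gene driven by BMAL1, was at 41.5, 24, 45.6, 22.2, 66.4 and 48.5, and *Per2*, a repressor, at 4.92, 4.71, 9.88, 4.32, 9.5 and 7.44. Mice 21, 22 and 24 were the high mice for *Arntl* and the low mice for *Dbp* and *Per2*. Not all clock genes followed this split. *Per1* was lowest in mouse 26, at 10.7 FPKM against 23.7 in mouse 21, and *Per3* was at 13.8 FPKM in mouse 21 and 12.2 in mouse 26. The ratio of *Dbp* to *Arntl* went from 1.97 in mouse 24 to 11.3 in mouse 25. The 14 immediate early genes summed to between 103 and 162 FPKM, highest in mouse 23, and 10 of the 14 were lowest in mouse 24. The labels give no time of day.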

How the data were processed

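Gene tables of 6 B6NCrl thyroids were used. The authors built ribosome-depleted libraries from 500 ng of total RNA, sequenced them on a NextSeq 500, and aligned and quantified reads with OSA4 in OmicSoft Array Studio against Ensembl release 96. They deposited estimated counts per gene, not normalized, and FPKM values. Whether counting used strand is not given in the sources used here. Exon overlaps with other genes are not noted at each gene above. Opposite-strand overlaps also exist for *Tg*, *Pax8*, *Foxe1*, *Dio2*, *Kcnq1*, *Dbp*, *Gapdh* and *Xist*, among others. Same-strand overlaps exist for *Ctsd* and *Ctsl*, among others. In a mouse, 81.8% to 82.7% of the estimated counts were whole numbers. Of 55536 genes, 55450 were found in GENCODE M21 (GRCm38), all with the same start and end, so the coordinates are those of GRCm38, although the methods name the reference Mouse.B39.

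Shares came from unrounded counts. The highest and lowest mouse of a gene were taken on deposited FPKM, without TMM factors. On that measure mouse 21 was also the highest for 9 of the 17 classic reference genes. The share of all genes highest in each mouse is not given, so numbers of list members highest in a mouse have no background beside them. Counts were rounded for the spread between mice, computed with edgeR 4.0.16 (R 4.3.3) with TMM factors and an intercept only, and tested on simulated data. No groups were compared and no p-value was computed, and 1 library per mouse means that the spread includes technical error.

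The thyroids were taken by library name. The decision to describe them and the choice of gene lists were made with earlier results of these data known. Named genes are the 15 highest by share of counts, the 15 highest protein-coding by FPKM, the 15 highest and 15 lowest by CV, and members of the lists. At most 4 members of lists outside the thyroid and housekeeping ones fell under this rule. *C7*, *Sla*, *Nupr1*, *Prss16*, *Ptprc*, *Mki67*, *Rag2*, *Hspa5*, *Manf*, *Sdf2l1*, *Sel1l*, *Gpx3*, *Myl1*, *Myh2*, *Myh7*, *Adipoq*, *Arntl*, *Per2* and *Kdm5d* fell outside it and were named after their values were seen. *Per1* and *Per3* were also named after their values were seen. The alternatives were other scalings (library totals, totals without *Tg*, upper quartile, DESeq2 1.42.0 size factors, FPKM), other filters, and leaving out each mouse. Some genes that the rule takes are not reported here.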

Additional observations from a re-analysis of the deposited data

Results flagged for a closer look

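In groups of 6 mice, a value is listed here when its gap to the nearest other mouse, divided by the whole range, was above Dixon's 95% critical value for 6 values. Chance flags about 1 in 20 groups that were not chosen for their spread, and 42 of the 151 results examined passed. Many of these genes were reported for a high CV or because 1 mouse stood out, which fixed that they would pass, so the number is not read against chance.

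Mouse 21 was the high mouse for the number of genes holding 50% of counts (0.651), the number of genes with an FPKM of at least 1 (0.693), and the summed FPKM of thymus (0.997), T cells (0.994), squamous epithelium (0.942), proliferation (0.908), macrophages (0.730) and B cells (0.648). Single genes with the ratio for mouse 21 were *Rag1* (0.998), *Cd8a* (0.996), *Themis* (0.993), *Prss16* (0.973), *Lck* (0.968), *Ptprc* (0.963), *Mki67* (0.947), *Krt5* (0.941), *Top2a* (0.909), *Ctss* (0.756), *Ctsl* (0.731), *B2m* (0.726), *Nup214* (0.677) and *C1qa* (0.634). Mouse 21 was the low mouse for the summed FPKM of C cells (0.698). *Chga*, a member of both the C cell and the parathyroid list, made up most of that sum, at 1034 of 1821 FPKM in mouse 21. *Calca* alone was at 692 FPKM in mouse 21 and 743 in mouse 23.

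Mouse 23 was the high mouse for *Dcpp2* (1.0), *Bpifb2* (0.9998), *Muc5b* (0.9998), *Tff2* (0.9995), *Gp2* (0.9994), *Sbpl* (0.997), *Alb* (0.997), *Dcpp3* (0.995), *Nupr1* (0.988), *Apob* (0.986), *Pigr* (0.985), *Dmbt1* (0.969) and *Ttr* (0.906), and the low mouse for *Sod1* (0.636). *Nupr1*, a small stress-response protein, was at 271 FPKM in mouse 23 and between 15.2 and 18.2 in the other 5.

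Mouse 22 was the high mouse for *Gpx3* (0.725), *Cidea* (0.683), the summed FPKM of brown fat (0.673) and *Adipoq* (0.627), and the low mouse for *Kcne2* (0.731), whose levels were all under 1 FPKM.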

How the results depend on the processing

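Without one mouse, with all else as reported, the share of counts held by *Tg* was 23.1% to 24.7%, genes holding 50% of counts numbered 242 to 280.0, the mitochondrial mRNA share was 3.31% to 3.67%, genes detected at 1 FPKM numbered 14069 to 14129, the median CV was 11.6% to 12.8% and the common biological coefficient of variation 18.0% to 22.2%, the lowest of both without mouse 21. With all mice and other settings, the share held by *Tg* was 6.55% of summed FPKM. Genes holding 50% of counts numbered 49.0 by FPKM and 957 without *Tg*. The mitochondrial mRNA share was 7.53% by FPKM and 4.64% without *Tg*. Genes detected in all mice numbered 8172 at 5 FPKM, and between 16156 and 17520 at 0.5 FPKM, 10 counts or filterByExpr. The median CV was 13.9% with totals without *Tg*, 13.6% on FPKM, 32.8% with no filter and 9.47% at a mean CPM of at least 10. The common biological coefficient of variation was 32.1% with no filter and 23.0% at a mean CPM of at least 10. Genes with a CV over 50% numbered 386 to 738 without a mouse, the lowest without mouse 21. Chosen after seeing the data, a mean CPM of at least 1 or 10 with no minimum per mouse gave 1064 and 246. Of 112 reported genes, the CV moved by more than its own leave-one-out SD for 17 with totals without TMM, 39 with totals without *Tg*, 18 on FPKM, 53 on log2(FPKM + 1) and 47 on log2(FPKM + 0.1). No paired analysis was possible because the groups share no replicate numbers and no groups were compared. Depth limits genes under about 1 FPKM, where a mean rests on few counts.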
